A study of Capra hircus with 6 samples.

Results

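The genes that copy DNA and carry cells from G1 into S phase were examined in whole ovaries of 6 goats (Capra hircus). The list had 45 entries, chosen by gene symbol for their known roles with earlier results of these data known. Of these, 44 were found among the 17504 genes measured. CDKN1C was not analysed here. The ovaries came from 3 prolific Jintang black goats and 3 non-prolific Tibetan goats, in the terms of the labels. Sampling was recorded as in the follicular phase, when follicles grow towards ovulation, and no treatment or genetic change is recorded for either breed. The design asks which ovarian transcripts differ between the breeds. The labels give no age, body weight or handling of the tissue, and each sample is the RNA of an ovary with all its cell types mixed. Each library is 1 goat and is called by breed and by the number in its title, such as Jintang 2.

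Before a cell divides it loads a ring of MCM proteins onto its DNA at sites marked by the origin recognition complex, with CDC6 and CDT1 as loaders. In S phase the ring becomes an active helicase with CDC45 and the GINS complex, polymerases follow it held by the PCNA clamp, and the cell makes more deoxynucleotides. Cyclins with their kinases release E2F factors from RB1 and so switch on many of these genes, while CDKN1A and CDKN1B hold the kinases back. In the ovary, growing follicles are known as sites of granulosa cell division, and cells that turn into luteal tissue after ovulation leave the cycle. These roles are known mainly from yeast, mouse and human cells.

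Expression was deposited as FPKM, a fragment count divided by transcript length and by the size of the library, which allows levels of different genes to be compared. The FPKM of all genes summed to between 602511 and 669309 in Jintang libraries and between 602255 and 682801 in Tibetan libraries. The absolute depth is unknown, but the spacing of low values put the deepest library at 1.112 times the shallowest. The follicle gene INHA was at 9.56 FPKM or more in every library, the vessel gene CDH5 at 17.1 FPKM or more and the connective tissue gene DCN at 531 FPKM or more. The oocyte gene BMP15 was at most 1.73 FPKM and was listed at 0 in Tibetan 1 and Tibetan 3. Fold changes are log2 differences of FPKM + 1, Jintang minus Tibetan. They were fitted with limma over the genes that reached 1 FPKM in 3 or more libraries, and a gene passed at a Benjamini-Hochberg adjusted p under 0.05, 2-sided. The scale understates the change of low genes.

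No replication or G1/S gene passed the test between the breeds, and the goats at both extremes were most often Jintang goats. Of the 44 genes, 25 peaked in Jintang 2 and 26 had their lowest value in Jintang 1. Among the 42 that passed the filter on low values, 23 were highest in Jintang 2, where 20.6% of all 13067 tested genes were highest, and 25 were lowest in Jintang 1, where 25.3% of all tested genes were lowest. Tibetan 1 was lowest for 10 of the 42, against 20.8% of all tested genes. Jintang 3 was rarely at either end, highest for 1 (8.57% of all tested genes) and lowest for 2 (5.31%), and Tibetan 3 was lowest for 3 (9.82%). With median-ratio scaling Jintang 2 was highest for 29 of the 44 and Jintang 1 lowest for 21. Summed over the 44 genes, expression was 466, 912 and 645 FPKM in Jintang 1, 2 and 3, against 701, 712 and 597 FPKM in Tibetan 1, 2 and 3. The lowest and the highest sum thus both came from Jintang goats, with all 3 Tibetan sums between them. Such a sum is weighted to abundant genes and adds the inhibitors CDKN1A and CDKN1B to the rest. The helicase group alone was lowest in Tibetan 3, at 119.5 FPKM against 120.8 FPKM in Jintang 1. Cyclins and kinases were highest in Tibetan 3, at 219.6 FPKM. In a mixed tissue, fewer dividing cells and less RNA of these genes per cell cannot be told apart.

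**Figure D1:**
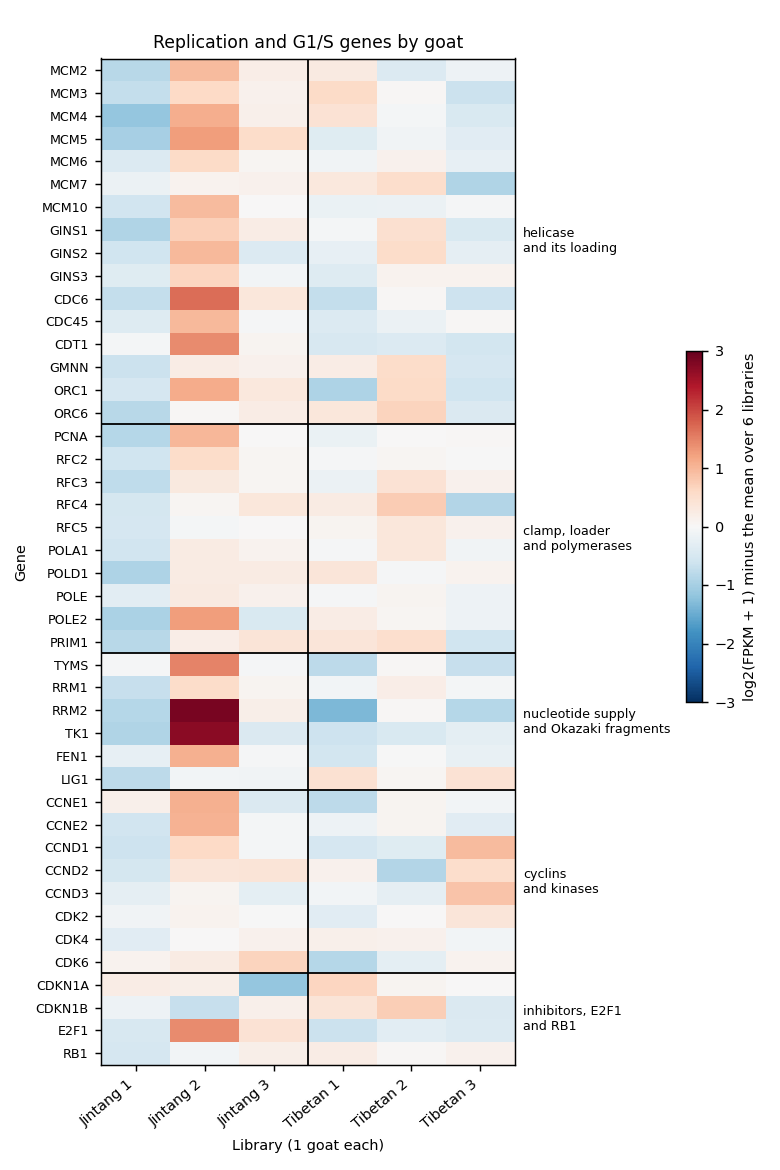
Expression of the 44 genes (rows, grouped by role) in the 6 libraries (columns, 1 goat each), as log2(FPKM + 1) minus the gene's mean over the libraries. Jintang 2 is red and Jintang 1 blue for most genes of the helicase and polymerase groups, while the D-type cyclins are reddest in Tibetan 3.

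None of the 42 tested genes passed the limma test, with 0 higher and 0 lower in Jintang ovaries and a smallest adjusted p of 0.743. Over all 13067 genes the share called was likewise 0% in each direction. At an unadjusted p under 0.05 there were 0 of the 42, against 6.17% of all tested genes, of which 2.82% were higher and 3.35% lower in Jintang ovaries. That count was 4 without Jintang 1 (CDT1, E2F1, MCM5 and RRM2), against 2.69% of all tested genes. It was 2 without Jintang 3 (CDT1 and TYMS), against 14.3%, and 1 without Tibetan 3 (CDK6), against 7.79%. With median-ratio scaling it was 1 (CDT1), against 764 of all 13067 tested genes. The median log2 fold change of the 42 was 0.023, beside -0.096 over all tested genes, and the values ran from -0.64 (LIG1) to 1.44 (RRM2). A value above 0 was found in 22 of the 42, where 41% of all tested genes had one. That count became 35 without Jintang 1 and 10 without Jintang 2. Median-ratio scaling, which moved the median of all genes to 0.018, put 29 of the 42 above 0.

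The roles differed in the sign of their fold changes, though none of their genes passed the test. Of 15 genes of the helicase and its loading 12 were above 0, with a median of 0.13, but 3 were without Jintang 2. Of 10 genes of the clamp, its loader and the polymerases 2 were above 0, with a median of -0.12, but 9 were without Jintang 1 and 4 with median-ratio scaling. For nucleotide supply and Okazaki fragments 4 of 6 were above 0 with a median of 0.72, and that median was -0.05 without Jintang 2. Among cyclins and kinases 3 of 7 were above 0 with a median of -0.02, and 6 were with median-ratio scaling, without Jintang 1 or without Tibetan 3. Of CDKN1A, CDKN1B, E2F1 and RB1 only E2F1 was above 0, with each scaling and each library left out.

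**Figure D2:**
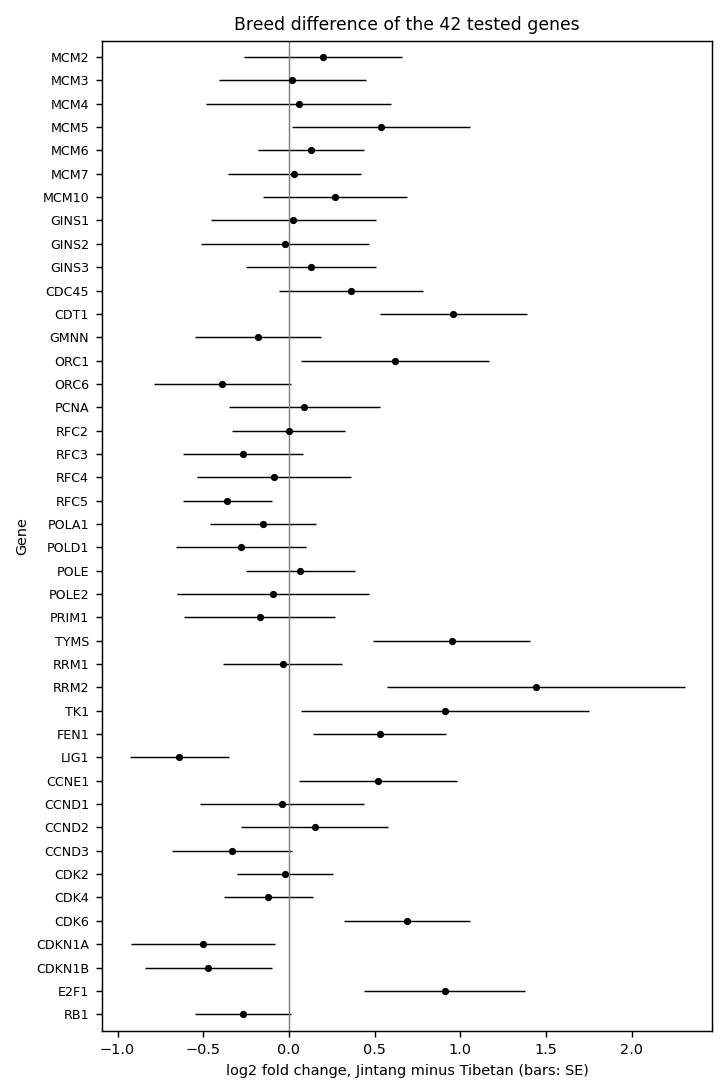
Log2 fold change (of FPKM + 1, Jintang minus Tibetan) of each of the 42 tested genes, with the standard error as a bar. The values lie on both sides of 0, from -0.64 for LIG1 to 1.44 for RRM2.

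In 3 genes all goats of one breed lay on one side of all goats of the other, CDT1 higher and RFC5 and LIG1 lower in Jintang ovaries. That is 1 of 42 higher, against 3.2% of all tested genes, and 2 of 42 lower, against 6.7%. Together they were 3 of 42, against 9.9% of all tested genes, so the shares were near or below the background. With fewer goats separation is more frequent among all genes. The count was 10 of 42 without Jintang 1, against 14.1% of all tested genes, and 8 without Tibetan 3, against 26.0%. It was 6 without Jintang 2, against 15.9%, 6 without Tibetan 2, against 22.5%, and 5 without Jintang 3, against 33.6%. Without Tibetan 1 it was 3, against 15.1%. With median-ratio scaling CDT1, CDK6 and RFC5 were the genes without overlap, and LIG1 overlapped. The share over all genes on that scale was not computed.

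Among the genes that load and fire the helicase, CDT1, the loader that brings the MCM ring to origins, had 3.04, 10.2 and 3.45 FPKM in Jintang 1, 2 and 3, against 2.04, 2.16 and 1.87 FPKM in Tibetan 1, 2 and 3. Every Jintang goat lay above every Tibetan goat, but Jintang 1 and 3 were much nearer to the Tibetan goats than to Jintang 2. The log2 fold change was 0.96 (SE 0.43, limma adjusted p = 0.743), and it was 0.49 without Jintang 2. Geminin (GMNN), the protein that binds and blocks CDT1, had 9.63, 18.4 and 17.2 FPKM in Jintang ovaries, against 18.4, 23.1 and 10.6 FPKM in Tibetan ovaries. Its breeds overlapped widely. The ratio of CDT1 to GMNN within a library was 0.316, 0.556 and 0.201 in Jintang 1, 2 and 3, against 0.111, 0.0935 and 0.177 in Tibetan 1, 2 and 3. These ratios did not overlap between the breeds, with Jintang 3 and Tibetan 3 close to each other. The pair was picked after its values were seen, so the ratio carries no test.

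CDC6, the other loader, varied most over the goats as a ratio, with 0.13, 4.86 and 1.34 FPKM in Jintang ovaries, against 0.12, 0.90 and 0.20 FPKM in Tibetan ovaries. Only 2 of the 6 libraries reached 1 FPKM, so CDC6 was not tested, and its low values rest on few fragments. ORC1, the origin recognition subunit whose amount changes through the cycle in human cells, had 0.73, 4.37 and 2.07 FPKM in Jintang ovaries, against 0.30, 2.70 and 0.64 FPKM in Tibetan ovaries. Jintang 2 was highest and Tibetan 2 second for this gene (log2 fold change 0.62, SE 0.55, limma adjusted p = 0.797). ORC6, another subunit, was higher on average than ORC1, at 7.35 against 1.80 FPKM over all goats, and was highest in Tibetan 2 at 11.5 FPKM.

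MCM2 to MCM7 build 1 ring with a single copy of each, but their transcripts were far from equal. MCM7 averaged 63.4 FPKM over the 6 goats and MCM2 6.95 FPKM, with MCM3, MCM4, MCM6 and MCM5 between them at 26.9, 21.6, 18.1 and 17.7 FPKM. The ratio of MCM7 to MCM2 ran from 4.98 to 16.9 in Jintang ovaries and from 5.72 to 19.3 in Tibetan ovaries. All of MCM2 to MCM6 were highest in Jintang 2 and lowest in Jintang 1. MCM7 did not follow them. MCM4 had 8.05, 41.9 and 21.6 FPKM in Jintang 1, 2 and 3, against 26.1, 18.5 and 13.7 FPKM in Tibetan 1, 2 and 3. MCM2, a subunit that also binds histones, had 3.16, 13.1 and 7.41 FPKM in Jintang ovaries, against 7.83, 4.52 and 5.63 FPKM in Tibetan ovaries. In both genes Tibetan 1 was second only to Jintang 2. MCM3 had 15.1, 38.9 and 27.6 FPKM in Jintang ovaries, against 38.1, 25.7 and 15.8 FPKM in Tibetan ovaries, and MCM6 was at most 26.6 FPKM, a 2.05-fold range over the goats. For MCM3 the top goats of the breeds were nearly equal.

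MCM5 had 7.23, 38.1 and 23.1 FPKM in Jintang 1, 2 and 3, against 11.8, 14.1 and 11.9 FPKM in Tibetan 1, 2 and 3. The 3 Tibetan goats were close together, and the Jintang goats lay on both sides of them. Its log2 fold change was 0.54 (SE 0.52, limma adjusted p = 0.809), and 0.053 without Jintang 2. MCM7 had 53.3, 65.4 and 66.1 FPKM in Jintang ovaries, against 76.3, 87.1 and 32.2 FPKM in Tibetan ovaries, with the spread here among the Tibetan goats. The mean FPKM was lower in Jintang ovaries (61.6 ± 7.20, against 65.2 ± 29.1 in Tibetan ovaries, SD, n = 3 each), while the log2 fold change was 0.032 (SE 0.39, limma adjusted p = 0.986). The breed means of MCM7 thus could not be told apart, and their order depended on the scale.

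**Figure D3:**
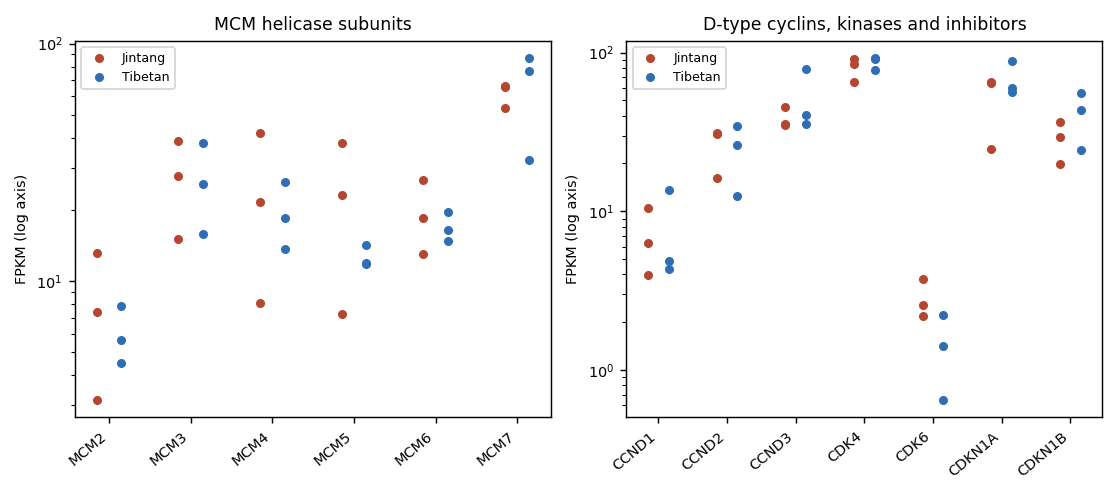
FPKM per goat on a log axis for MCM2 to MCM7 (left) and for the D-type cyclins, CDK4, CDK6, CDKN1A and CDKN1B (right), with Jintang goats in red and Tibetan goats in blue. MCM7 stands above most other MCM points and CDK4 above CDK6, and the breeds overlap for all genes shown, with CDK6 overlapping only between Jintang 1 (2.19 FPKM) and Tibetan 3 (2.23 FPKM).

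The partners that turn the ring into a helicase were expressed at low levels. GINS1, GINS2, GINS3, CDC45 and MCM10 each averaged between 1.27 and 2.42 FPKM over the 6 goats. Each of them had its highest value in Jintang 2, between 2.42 FPKM for GINS3 and 4.76 FPKM for GINS2. In the other 5 goats GINS2 was at most 3.29 FPKM and GINS3 at most 1.37 FPKM. Their lowest values fell in Jintang 1 for GINS1, GINS2 and MCM10, and in Tibetan 1 for GINS3 and CDC45.

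Genes of the clamp, its loader and the polymerases varied less than those of the helicase group, with a median SD over the 6 goats of 0.45 log2 units, against 0.57 in the helicase group and 0.432 over all tested genes. PCNA, the sliding clamp, had 15.7, 59.5 and 29.8 FPKM in Jintang 1, 2 and 3, against 25.7, 29.8 and 30.5 FPKM in Tibetan 1, 2 and 3. Jintang 3 and the Tibetan goats were within 5 FPKM of each other, with Jintang 1 below them and Jintang 2 above. The log2 fold change of PCNA was 0.09 (SE 0.44, limma adjusted p = 0.962), and -0.38 without Jintang 2.

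The clamp loader subunits RFC2 to RFC5 stood close in level, averaging 14.2, 10.2, 18.6 and 18.1 FPKM over all goats. RFC5 had 12.2, 17.2 and 18.1 FPKM in Jintang ovaries, against 18.9, 22.7 and 19.6 FPKM in Tibetan ovaries. No Jintang goat reached the lowest Tibetan one, by a margin of less than 1 FPKM (log2 fold change -0.36, SE 0.26, limma adjusted p = 0.763). RFC3 had 5.39, 12.3 and 10.3 FPKM in Jintang ovaries, against 8.63, 13.7 and 10.8 FPKM in Tibetan ovaries, with overlap (log2 fold change -0.27, SE 0.35, limma adjusted p = 0.862). Of the 4 subunits only RFC2 was highest in Jintang 2. The other 3 were highest in Tibetan 2.

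POLD1, the catalytic subunit of polymerase delta, had 3.20, 8.51 and 8.51 FPKM in Jintang ovaries, against 9.20, 6.83 and 7.54 FPKM in Tibetan ovaries. Jintang 1 alone stood apart from the other goats. Its log2 fold change was -0.28 (SE 0.38, limma adjusted p = 0.865), and 0.11 without Jintang 1. POLA1 and PRIM1, which start new strands as parts of the primase complex, averaged 8.41 and 6.79 FPKM over all goats and were lowest in Jintang 1 and highest in Tibetan 2. POLE2, an accessory subunit of polymerase epsilon, varied far more, at 0.28, 4.82 and 0.80 FPKM in Jintang ovaries, against 1.87, 1.56 and 1.22 FPKM in Tibetan ovaries. POLE, its catalytic partner, stayed between 1.15 and 2.23 FPKM in all goats.

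The enzymes that supply deoxynucleotides included the genes that varied most between goats on the log2(FPKM + 1) scale, RRM2 (SD 1.51) and TK1 (SD 1.35). RRM2, the limiting subunit of ribonucleotide reductase whose amount rises in S phase, had 1.60, 32.7 and 4.26 FPKM in Jintang 1, 2 and 3, against 0.85, 3.84 and 1.57 FPKM in Tibetan 1, 2 and 3. Jintang 2 was 7.66 times the next goat, and Jintang 1 lay among the Tibetan goats. The log2 fold change was 1.44 (SE 0.87, limma adjusted p = 0.743), and 0.38 without Jintang 2. RRM1, the stable subunit of the same enzyme, had 14.2, 35.2 and 25.1 FPKM in Jintang ovaries, against 22.2, 27.3 and 22.7 FPKM in Tibetan ovaries. It was thus high in all goats, with a range of 2.48-fold against 38.4-fold for RRM2. Its log2 fold change was -0.037 (SE 0.35, limma adjusted p = 0.983), while its mean FPKM was slightly higher in Jintang ovaries (24.8 ± 10.5, against 24.0 ± 2.80 in Tibetan ovaries, SD, n = 3 each). The ratio of RRM2 to RRM1 was 0.113, 0.927 and 0.170 in Jintang ovaries, against 0.0383, 0.141 and 0.0693 in Tibetan ovaries, so transcripts of the subunits approached equal levels in Jintang 2 alone.

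TK1, the thymidine kinase of dividing cells, had 2.05, 36.5 and 3.21 FPKM in Jintang ovaries, against 2.72, 3.15 and 3.66 FPKM in Tibetan ovaries. Apart from Jintang 2 all goats lay within 2.05 to 3.66 FPKM. TYMS, which makes thymidylate, had 12.2, 36.9 and 12.2 FPKM in Jintang ovaries, against 6.87, 12.9 and 7.35 FPKM in Tibetan ovaries. Tibetan 2 slightly exceeded Jintang 1 and 3 (log2 fold change 0.95, SE 0.46, limma adjusted p = 0.743), and the value was 0.45 without Jintang 2.

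Of the enzymes that join the short pieces of the lagging strand, FEN1, which trims them, was highest in Jintang 2 at 17.6 FPKM and between 5.08 and 7.70 FPKM in the other goats. LIG1, the ligase that seals them, took another order, with 8.23, 14.1 and 13.8 FPKM in Jintang ovaries, against 20.6, 15.6 and 20.5 FPKM in Tibetan ovaries. All Jintang goats were below all Tibetan goats, and Jintang 2 did not stand out. The log2 fold change of LIG1 was -0.64 (SE 0.29, limma adjusted p = 0.743), and with 1 library left out it ran from -0.76 to -0.40.

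**Figure D4:**
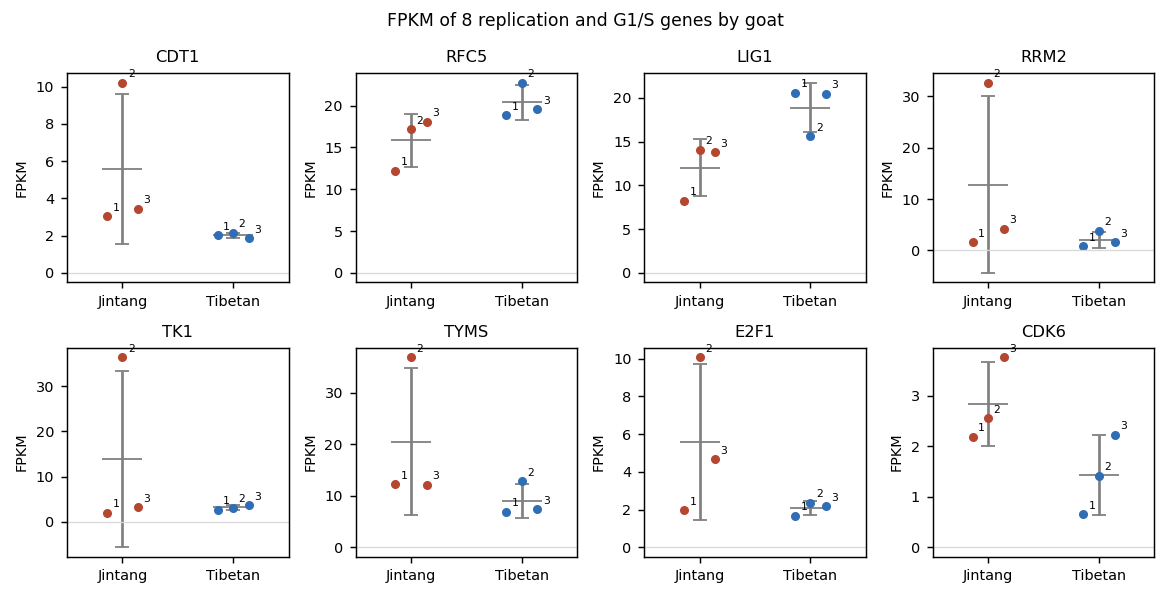
FPKM of 8 genes in Jintang (red, left) and Tibetan (blue, right) goats, with the goat's number beside its point and the breed mean ± SD in grey (n = 3 each). Jintang 2 stands alone for RRM2 (32.7 FPKM) and TK1 (36.5 FPKM), while for LIG1 and RFC5 all Jintang goats lie below all Tibetan goats.

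The E-type cyclins, which with CDK2 start S phase, were low. CCNE1 had 1.92, 4.52 and 0.95 FPKM in Jintang 1, 2 and 3, against 0.53, 1.81 and 1.49 FPKM in Tibetan 1, 2 and 3. Its breeds overlapped, and its log2 fold change was 0.52 (SE 0.46, limma adjusted p = 0.798). CCNE2 reached 1 FPKM only in Jintang 2 (2.99 FPKM) and Tibetan 2 (1.06 FPKM) and was not tested. CDK2, their kinase, was even across goats, between 5.90 and 10.1 FPKM.

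The D-type cyclins, which answer growth signals in G1, shared their highest goat but not their lowest. All 3, like CDK2, were highest in Tibetan 3, the goat with the highest INHA (1194 FPKM), an inhibin subunit made by granulosa cells, and the highest CYP17A1 (719 FPKM), the androgen-making enzyme of theca cells. Of the 8 granulosa markers INHA and CYP19A1 were highest in that goat, and INHA made up 1194 of the 1260 FPKM of the list there. INHBA (15.6 FPKM) and FOXL2 (1.75 FPKM) were lowest in that goat, and its median log2 ratio to the other libraries over the list was -0.86. The part of those cell types in the cyclin values was not tested. CCND3 had 35.4, 45.7 and 35.0 FPKM in Jintang ovaries, against 40.4, 35.4 and 79.3 FPKM in Tibetan ovaries. Apart from Tibetan 3 no goat exceeded 45.7 FPKM (log2 fold change -0.33, SE 0.35, limma adjusted p = 0.824), and without that goat the value was 0.022. CCND2, known in mice as the cyclin that follicle-stimulating hormone induces in granulosa cells, had 16.1, 30.6 and 31.3 FPKM in Jintang ovaries, against 26.0, 12.4 and 34.4 FPKM in Tibetan ovaries. CCND1 was the lowest of the 3, at 3.96, 10.5 and 6.35 FPKM in Jintang ovaries, against 4.33, 4.89 and 13.6 FPKM in Tibetan ovaries. Both overlapped between the breeds.

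CDK4, a kinase partner of the D-type cyclins, was the most abundant gene of the list and its steadiest, with 65.5, 84.6 and 91.4 FPKM in Jintang ovaries, against 92.6, 90.9 and 78.0 FPKM in Tibetan ovaries. Its SD over the 6 goats was 0.191 log2 units, and its log2 fold change was -0.12 (SE 0.26, limma adjusted p = 0.916). CDK6, the related kinase, was much lower, with 2.19, 2.56 and 3.77 FPKM in Jintang ovaries, against 0.65, 1.42 and 2.23 FPKM in Tibetan ovaries. Only Tibetan 3 reached the lowest Jintang goat. The log2 fold change of CDK6 was 0.69 (SE 0.37, limma adjusted p = 0.743), and it was between 0.44 and 0.92 with 1 library left out. The ratio of CDK4 to CDK6 was 29.9, 33.0 and 24.2 in Jintang ovaries, against 142, 64.0 and 35.0 in Tibetan ovaries, a pair again picked after the values were seen.

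The kinase inhibitors were expressed well above the cyclins E. CDKN1A, which is induced by p53 and by differentiation, had 65.6, 64.0 and 24.7 FPKM in Jintang ovaries, against 88.8, 59.8 and 56.1 FPKM in Tibetan ovaries. Jintang 3 stood below the others (log2 fold change -0.50, SE 0.42, limma adjusted p = 0.788), and without it the value was -0.043. CDKN1B, known from mice as a brake on granulosa and luteal cell division, had 29.5, 20.0 and 36.6 FPKM in Jintang ovaries, against 43.6, 55.4 and 24.3 FPKM in Tibetan ovaries. It was the only gene of the list lowest in Jintang 2, and its log2 fold change was -0.47 (SE 0.37, limma adjusted p = 0.782).

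E2F1, the transcription factor that drives S-phase genes, had 1.97, 10.1 and 4.68 FPKM in Jintang ovaries, against 1.67, 2.37 and 2.16 FPKM in Tibetan ovaries. Jintang 2 and 3 lay above all Tibetan goats and Jintang 1 among them. The log2 fold change was 0.91 (SE 0.47, limma adjusted p = 0.743), and 0.43 without Jintang 2. RB1, which holds E2F in check, stayed between 4.63 and 8.38 FPKM in all goats and was lowest in Jintang 1.

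Other genes of the same pathway, a further 61 entries of which 60 were found, gave a like picture. Of 55 tested, 0 were higher and 0 lower by limma. An unadjusted p under 0.05 was found for 2 of the 55 (POLD2 and CDKN2B), against 6.17% of all tested genes. The median log2 fold change was -0.054, with 24 of 55 above 0. In 5 of the 55 the breeds did not overlap, RECQL4 and CDKN2B higher and ORC3, POLD2 and MTBP lower in Jintang ovaries, against 9.9% of all tested genes. Jintang 2 was highest for 23 of the 55, against 20.6% of all tested genes, and Jintang 1 lowest for 31, against 25.3%. POLD2, the partner subunit of POLD1, had 7.05, 13.4 and 16.1 FPKM in Jintang ovaries, against 32.7, 20.5 and 20.1 FPKM in Tibetan ovaries. All Jintang goats were below all Tibetan goats, as for LIG1 (log2 fold change -0.98, SE 0.36, limma adjusted p = 0.743).

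CDKN2B, an inhibitor of CDK4 and CDK6, had 5.67, 1.34 and 2.22 FPKM in Jintang ovaries, against 0.68, 1.00 and 0.72 FPKM in Tibetan ovaries. It was highest in Jintang 1, the goat in which most replication genes were lowest (log2 fold change 1.04, SE 0.43, limma adjusted p = 0.743). E2F3 was also highest in Jintang 1, at 4.56 FPKM, and its log2 fold change was 0.79 (SE 0.37, limma adjusted p = 0.743). UHRF1, which brings DNA methyltransferase to new DNA, had 1.89, 18.8 and 4.49 FPKM in Jintang ovaries, against 0.43, 2.00 and 2.58 FPKM in Tibetan ovaries. It followed RRM2 in standing out in Jintang 2 (log2 fold change 1.45, SE 0.69, limma adjusted p = 0.743). MTBP, a partner of the origin-firing factor TICRR, averaged 6.71 ± 0.984 FPKM in Jintang and 10.1 ± 2.53 FPKM in Tibetan ovaries (SD, n = 3 each; log2 fold change -0.51, SE 0.28, limma adjusted p = 0.743).

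The subunits of the origin recognition complex outside the list were steadier than ORC1. ORC2, ORC3, ORC4 and ORC5 averaged between 5.01 and 10.8 FPKM over all goats, and their highest values were at most 3.09 times their lowest, against 14.6 times for ORC1. All 4 were highest in Tibetan 2. E2F2 varied widely, with 0.62, 6.21 and 1.41 FPKM in Jintang ovaries, against 0.11, 0.69 and 15.8 FPKM in Tibetan ovaries. It shared its highest goat, Tibetan 3, with the D-type cyclins and not with E2F1.

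Genes of mitosis, the step after replication, gave another order of goats. Summed over 15 mitosis genes, expression was 46.3, 348 and 89.3 FPKM in Jintang 1, 2 and 3, against 18.1, 80.5 and 54.9 FPKM in Tibetan 1, 2 and 3. Jintang 2 was highest for all 15, as for most replication genes, but the lowest goat was Tibetan 1 for 13 of them and Jintang 1 for the other two. For MCM2 to MCM7 the sums were 99.7, 224 and 164 FPKM in Jintang ovaries, against 177, 169 and 94.0 FPKM in Tibetan ovaries. Tibetan 1 thus had the second highest MCM sum and the lowest mitosis sum. In that goat MCM2, MCM3 (38.1 FPKM), MCM4 and MCM7 (76.3 FPKM) were second highest. MCM5 (11.8 FPKM) and MCM6 (16.4 FPKM) lay below their means over all goats there. The proliferation marker MKI67 was at 0.44 and the topoisomerase TOP2A at 0.70 FPKM in Tibetan 1. The ratio of the MCM sum to the mitosis sum was 2.15, 0.643 and 1.84 in Jintang ovaries, against 9.76, 2.11 and 1.71 in Tibetan ovaries. The replication genes that were low in Tibetan 1 included CDC6, ORC1, RRM2 and CCNE1, each lowest in that goat.

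**Figure D5:**
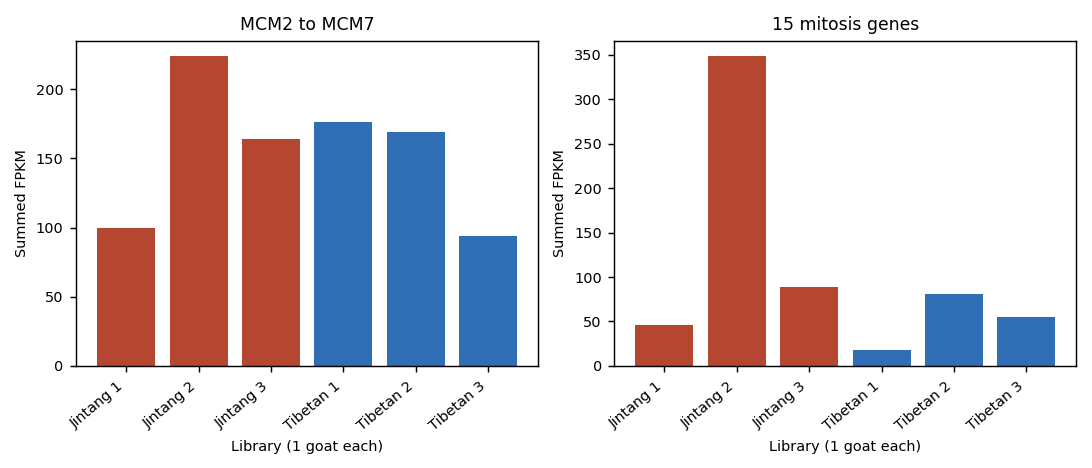
Summed FPKM of MCM2 to MCM7 (left) and of 15 mitosis genes (right) in each goat, Jintang in red and Tibetan in blue. Jintang 2 is highest in both, while Tibetan 1 is second highest for the MCM genes (177 FPKM) and lowest for the mitosis genes (18.1 FPKM).

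Markers of other cell types also differed between the goats that stood apart. The 6 luteal markers summed to 5890, 13730 and 407 FPKM in Jintang 1, 2 and 3, against 308, 476 and 1658 FPKM in Tibetan 1, 2 and 3. The goats at both ends of the replication genes, Jintang 2 and Jintang 1, thus had the highest luteal sums, with median log2 ratios to the other libraries of 4.07 and 2.87 over the list. TIMP1 made up 5304 of the 5890 FPKM in Jintang 1 and 9215 of the 13730 FPKM in Jintang 2. STAR (3130 FPKM), SCARB1 and TIMP1 were highest in Jintang 2, PTGFR (274 FPKM) and PRLR (53.4 FPKM) in Jintang 1, and LHCGR in Tibetan 3. STAR, SCARB1 and LHCGR were at 138.95, 114 and 5.71 FPKM in Jintang 1, below the 139.38, 156 and 53.4 FPKM of Tibetan 3. TIMP1, PTGFR and PRLR were higher in Jintang 1 than in Tibetan 3. In Jintang 1, 6 of 6 macrophage markers were highest, with sums from 66.6 to 446 FPKM in Jintang ovaries and from 33.6 to 108 FPKM in Tibetan ovaries. The same goat was highest for 4 of 5 fibroblast markers (sums of 2749 to 8222 FPKM in Jintang and 1681 to 2888 FPKM in Tibetan ovaries). It was highest for 3 of 6 endothelial markers (147 to 348 FPKM, against 127 to 225 FPKM in Tibetan ovaries). Of the others PECAM1 and CDH5 were highest in Jintang 2, and KDR was lowest in Jintang 1 (25.1 FPKM). Granulosa markers summed to between 180 and 309 FPKM in Jintang ovaries and between 191 and 1260 FPKM in Tibetan ovaries. They did not move together in Tibetan 1. FSHR, a defining receptor of these cells, was listed at 0 there, and AMH and NR5A2 were also lowest in that goat. FOXL2 (16.0 FPKM) was highest in that goat and GATM (81.4 FPKM) second highest. Lymphocyte markers summed to between 13.5 and 55.8 FPKM in Jintang and 17.8 and 47.8 FPKM in Tibetan ovaries, with the B-cell marker MS4A1 at 0.08 FPKM or less throughout. Oocyte markers summed to 3.30 to 18.0 FPKM in Jintang and 0.91 to 15.3 FPKM in Tibetan ovaries, and the erythroid gene ALAS2 was at 0 in 5 of 6 libraries. The part of these cell types in the replication and G1/S values was not tested. Whether the ovaries differed in stage within the recorded follicular phase, or from it, was not tested either.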

How the data were processed

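Per the labels' protocols, ovary RNA was taken up in TRIzol and the libraries were built with an NEBNext kit. The authors deposited 1 table of FPKM per goat, and the submitters' processing notes name TopHat2 2.0.10, Bowtie2 2.1.0 and RSEM 1.2.0. The sources used here do not name the genome build. No coordinates are printed. FPKM is relative within a library, so abundant genes lower the rest. GeneIDs were given symbols from a RefSeq table of assembly ARS1.2 (16457 by ID, 9 by transcript accession, 1038 unnamed).

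The fit used limma 3.58.1 in R 4.3.3 (lmFit and trended eBayes). Values entered as log2(FPKM + 1) and breed was the sole term. It covered 13067 genes and was also run on simulated data, the outcome of which is not reported here. Members, lists and tests were chosen with earlier results of these data known. Of the listed genes, those given with their fit were, per role, the 3 with the smallest p, the most abundant and those without overlap. The 5 with the smallest p among other pathway genes were given likewise. MCM2, MCM3, MCM4, CDC6, TK1, GMNN, CCND1, CCND2, POLE2 and E2F2 were added after their values were seen. Alternatives were other pseudocounts, filters and scalings, a replicate block and each library left out. Python 3.11.15, pandas 2.3.3 and matplotlib 3.10.9 were used. A planned search of promoters for motifs was not made.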

Additional observations from a re-analysis of the deposited data

How the results depend on the processing

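The count of replication and G1/S genes past the threshold was 0 under all 12 alternatives, as was that of the other pathway genes. The median log2 fold change of the replication and G1/S genes ran from -0.23 (without Jintang 2) to 0.32 (without Jintang 1). The spread of the median between goats of a breed was an SD of 0.40. That spread comes from the same goats, and leaving out 1 of 3 moves a breed mean by only part of it. Shifts smaller than it therefore cannot show that the median is stable. With at least 5 FPKM in 3 libraries 10 of 28 tested genes were above 0, where the genes tested are fewer. Leaving out 1 library gave between 10 and 35 of 42 above 0. Between 3 (without Tibetan 1) and 10 (without Jintang 1) were without overlap, against 15.1% and 14.1% of all tested genes. Over all tested genes, 13 passed without Jintang 3, all higher, and none of them was a listed gene. Of 24 genes given with their fit, 7 turned their sign in 12 of 279 values. The genes added after their values were seen are outside these 24. Of all 42 tested genes, 27 turned their sign with 1 library left out. The ranges with 1 library left out were -0.41 to 0.30 for MCM7, -0.48 to 0.044 for RFC3, -0.48 to 0.11 for POLD1, -0.38 to 0.55 for PCNA, -0.32 to 0.30 for RRM1, -0.55 to 0.022 for CCND3 and -0.22 to 0.017 for CDK4. Median-ratio scaling gave 0.086 for RRM1 and 0.0041 for CDK4. The cause of these shifts was not tested. The smallest limma adjusted p of the 24 genes given with their fit was 0.267. With the replicate number as a block, 0 genes passed and 22 of the 42 were above 0. In that fit 2 of the 42 (RRM2 and TYMS) had an unadjusted p under 0.05, against 581 of all 13067 tested genes. Deviations of same-numbered goats from their breed means correlated at -0.018, -0.211 and -0.47. Centring on so few goats per breed constrains such values, so they cannot decide whether the numbers pair the goats. Genes below 1 FPKM rest on few fragments.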
